A study of Mus musculus with 12 samples.

Results

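The genes described here are 10 genes that mark or induce the primitive streak and the mesoderm of the early mouse embryo, taken by name from the 26061 genes of the deposited table. They are the T-box transcription factors T, Eomes and Tbx6, the homeobox transcription factors Mixl1, Gsc, Evx1 and Lhx1, the basic helix-loop-helix transcription factor Mesp1, and the secreted signals Wnt3 and Fgf8. All 10 were found. RNA came from 12 libraries of mouse embryonic stem cells (ESCs), with 4 groups of 3 libraries. Every group started from Tet2 KO ESCs, in which an exon of Tet2 had been targeted with a floxed neomycin cassette, and every group was infected with a lentiviral shRNA against Setdb1 and selected with puromycin. The groups differed in a stably integrated PiggyBac construct, which carried WT TET2 or a catalytic mutant of TET2 (H1304Y, D1306A), and in the medium. Naïve ESCs were grown in 2i, a medium with LIF, a MEK inhibitor and a GSK3 inhibitor. Primed ESCs were grown in serum with LIF. All comparisons were therefore between media or between rescue lines, with the Setdb1 shRNA in every cell, and cells that received a non-targeting shRNA were not used here.

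The primitive streak forms at the posterior side of the epiblast at the start of gastrulation, and cells that pass through it become mesoderm and definitive endoderm. Wnt3, Nodal and BMP4 signals induce it, Fgf8 is needed for cells to leave it, and T, Eomes and Mixl1 are among the first transcription factors to appear in it. T is a well-known target gene of β-catenin, the effector of canonical Wnt signalling, and Eomes is also required in the trophoblast. ESCs in culture hold little of these transcripts, and a low level can come from few cells or from little RNA per cell, which bulk libraries cannot tell apart.

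Upstream sequence is shown for T, Gsc and Eomes, the members with the largest differences between media. The sequences are from the RefSeq promoter table of GRCm38.p6, run 5′ to 3′ on the strand of the gene and end at the base before the RefSeq start, except that of Gsc, which ends before the gene start of GENCODE M1, 91 bases further upstream. Each matched mm9 exactly and at 1 position: T at chr17:8627038-8627287 on the plus strand, Gsc at chr12:105711538-105711696 on the minus strand and Eomes at chr9:118387057-118387306 on the plus strand. Capitals mark the letters CTTTGA, the core bound by TCF/LEF factors, here read on the opposite strand as TCAAAG, and the letters TATAAA, a common spelling of the TATA box.
T: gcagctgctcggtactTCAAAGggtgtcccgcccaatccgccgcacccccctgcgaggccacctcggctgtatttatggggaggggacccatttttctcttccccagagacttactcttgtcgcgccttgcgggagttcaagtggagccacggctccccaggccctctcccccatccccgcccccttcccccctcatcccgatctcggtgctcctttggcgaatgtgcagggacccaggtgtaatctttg
Gsc: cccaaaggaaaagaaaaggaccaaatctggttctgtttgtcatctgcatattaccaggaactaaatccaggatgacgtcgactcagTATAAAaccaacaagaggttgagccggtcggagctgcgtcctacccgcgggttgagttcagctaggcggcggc
Eomes: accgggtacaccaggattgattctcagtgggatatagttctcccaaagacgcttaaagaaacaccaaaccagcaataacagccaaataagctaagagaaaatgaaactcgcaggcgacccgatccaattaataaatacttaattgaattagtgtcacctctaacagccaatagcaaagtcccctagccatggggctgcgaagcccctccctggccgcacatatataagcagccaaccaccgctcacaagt
Both strands of the 250 bases upstream of the RefSeq start were searched in the 8 members that the table holds, which leaves out Mixl1 and Fgf8. The TCF/LEF core was found in T, 234 to 229 bases before the start, and in Mesp1, and in 13.8% of all 32851 promoters of this length. The letters TATAAA were found in Gsc, 164 to 159 bases before the RefSeq start, and in Tbx6, and in 12.4% of all promoters. The T-box half-site AGGTGTGA was found in none of the 8 members and in 1.12% of all promoters. A match describes these letters and no measured binding. Only the spelling TATAAA was searched, at any position, so the search does not show which members have a TATA box.

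The 12 libraries held 8066662 to 21335933 reads in genes, so that a single read stood for at most 0.124 RPM, a read rate scaled to the reads in genes of the library. Setdb1 was read 114 to 585 times in each library, and since all cells carried the shRNA its depletion was not measured here. Tet2 was read in every library, 1624 to 65641 times, and was higher with the WT construct than with the mutant by 2.16 ± 0.34 (SE) in naïve and 1.84 ± 0.34 in primed ESCs on the log2 scale (limma, adjusted p = 0.0154 and 0.0297, n = 3 per group). These values are of RNA, and by western blot the paper reported similar amounts of TET2 protein in the rescue lines. Between media, Tet2 was lower in naïve than in primed ESCs (difference -1.71 over both lines, adjusted p = 1.94e-05), and so was Setdb1 (-0.44, adjusted p = 0.0472). Setdb1 was not called in either rescue line alone. The part of Tet2 or Setdb1 in the differences between media was not tested. The ESC markers were all well above the test limit (8 of 8 tested, summed normalised read count 56012 to 78460 per library). Over both lines 2 of the 8 were called higher in naïve ESCs, Nanog (0.48) and Dppa5a (0.40). Another 3 were called lower, Utf1 (-2.22), Sall4 (-1.18) and Dppa4 (-0.56), beside 26.4% of all genes tested called higher and 25.4% lower. Pou5f1, Sox2 and Tdgf1 did not pass the test between media over both lines or in either rescue line. Within single lines Nanog was called with WT TET2 only, and Dppa5a in neither line.

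A read count is the number of reads in a library, a normalised read count is that number divided by the size factor of the library, and a log2 value is the deposited, variance-stabilised value, which understates fold changes at low counts. Differences were tested with limma over the 14185 genes with a mean log2 value of at least 1 more than the table's lowest value, and a gene was called at a Benjamini-Hochberg adjusted p under 0.05. The mean was taken over all 12 libraries, so a gene under this limit in either medium could pass it through the other. Gata3, Dll3, Snai1, Foxj1, Spry4, Etv4 and Bmp4, named below, passed it through primed libraries, and Sp5, Cdx1 and Chrd through naïve ones. Their p-values describe genes admitted by the medium in which they were high. Only 3 members, Eomes, Gsc and Wnt3, passed this limit. Evx1 lay 0.96 above the lowest value, Mixl1 0.78, T 0.65, Fgf8 0.39, Mesp1 0.21, Tbx6 0.19 and Lhx1 0.10. For these 7, reads were pooled over the libraries of a medium, and the ratio of read rates was given with an exact 95% interval that covers counting error only. An exact permutation test, two-sided, was run on the deposited log2 values of the libraries within each rescue line. With 3 libraries against 3 this test cannot go below 0.1 in a single rescue line, and with both lines together it cannot go below 0.005. The limma fits and permutations over both lines took the lines as independent. Same-numbered naïve libraries of the lines correlated, so p-values and intervals over both lines may be too small.

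**Figure D1:**
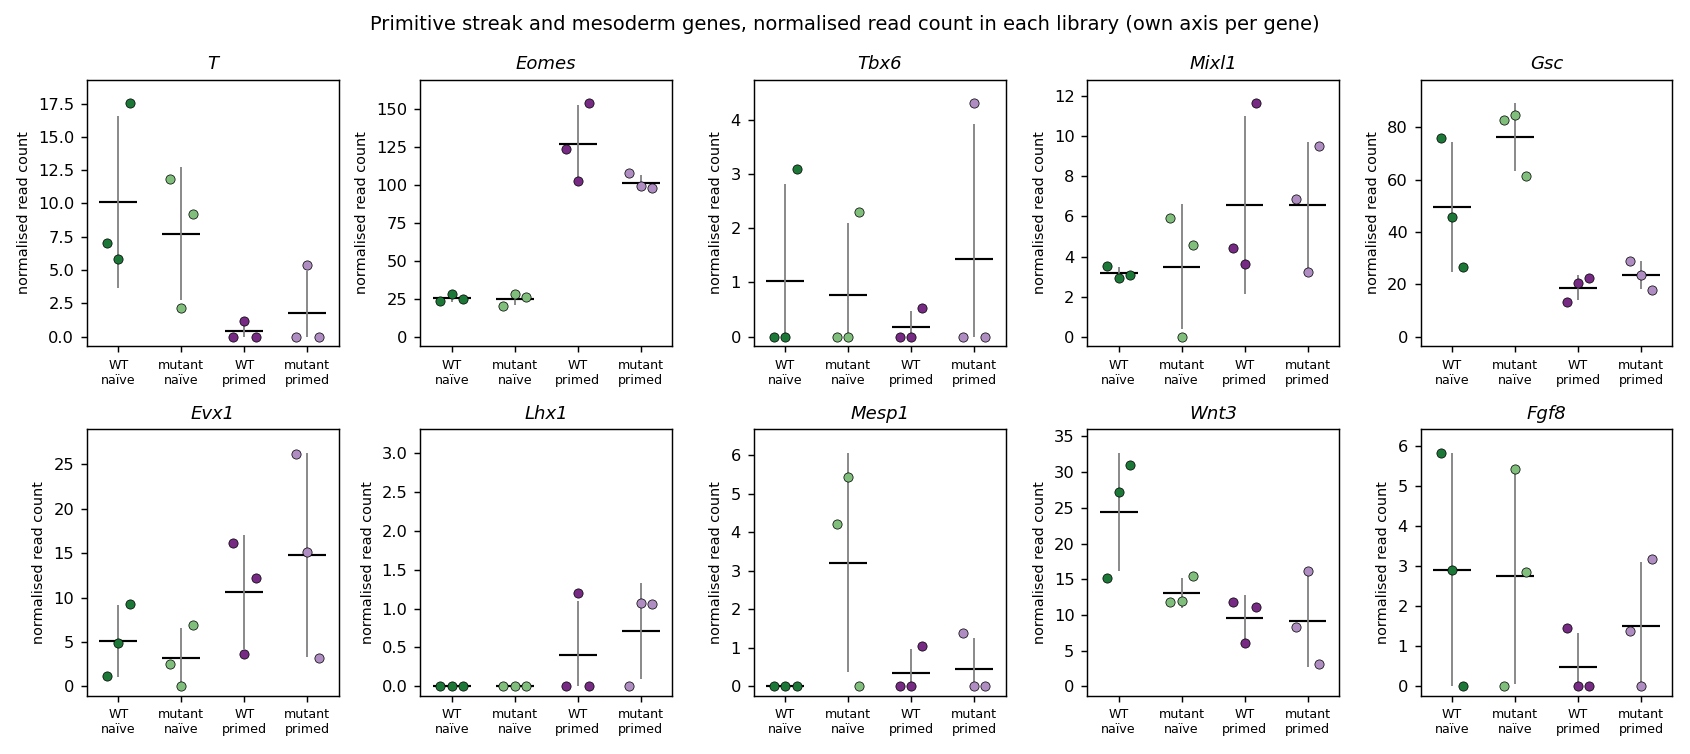
Normalised read count (vertical axis, reads divided by the size factor, own axis per gene) of each member in the 12 libraries, by rescue line and medium. Points are libraries, horizontal lines are means and grey lines are 1 SD, drawn down to 0 at most. Eomes is higher in all 6 primed libraries, Gsc and T are mostly higher in naïve libraries, and Tbx6, Lhx1, Mesp1 and Fgf8 stay at a few reads.

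The first question was how the members differed between naïve and primed ESCs. Eomes was lower and Gsc and Wnt3 were higher in naïve ESCs when both rescue lines were averaged, so all 3 members tested were called, 2 higher and 1 lower. Of all genes tested, 26.4% were called higher and 25.4% lower in naïve ESCs, so that a call in this comparison was common, and the count of members is not a result about them as a group. With WT TET2 all 3 members tested were called, beside 35.9% of all genes in either direction, and with mutant TET2 2 were called, beside 35.2%. T, which was too low for the main test, had 61 reads in naïve and 6 in primed libraries. Among the other members, the read rates of Mixl1 and Evx1 lay on the primed side, while Fgf8, Mesp1, Tbx6 and Lhx1 had 23 reads or fewer in all libraries together.

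Among the signals, Wnt3 (chromosome 11, positions 103635464 to 103679271 of mm9, plus strand), which is needed to form the streak, had 13, 28 and 30 reads in the naïve libraries with WT TET2 and 14, 11 and 27 with mutant TET2. Primed libraries had 8, 5 and 21 reads with WT TET2 and 6, 15 and 3 with mutant TET2. As normalised read counts these were 15.2, 27.3 and 30.9 and 11.8, 11.9 and 15.5 in naïve ESCs, and 11.8, 6.03 and 11.1 and 8.26, 16.2 and 3.18 in primed ESCs. With WT TET2 the naïve libraries all lay above the primed ones, and with mutant TET2 the media overlapped. The log2 value was higher in naïve ESCs by 0.44 (95% interval 0.11 to 0.77, adjusted p = 0.0259) over both lines, by 0.62 with WT TET2 (0.15 to 1.08, adjusted p = 0.0378) and by 0.26 with mutant TET2 (-0.20 to 0.72, adjusted p = 0.380). The pooled read rate was 1.90 times as high in naïve as in primed ESCs (1.38 to 2.64), and the permutation test over both lines gave p = 0.035. The call over both lines was lost in 6 of 20 alternatives, and in 5 of these a single library was left out. The adjusted p was 0.0557 without WT naïve replicate 2, 0.0571 without WT naïve replicate 3 and 0.0529 without mutant naïve replicate 3. It was 0.0662 without WT primed replicate 2 and 0.0690 without mutant primed replicate 3. With WT TET2 alone the call was lost in 8 of 15 alternatives. These were the fits in which WT naïve replicate 2 (0.106) or 3 (0.117) or WT primed replicate 1 (0.0611), 2 (0.129) or 3 (0.0665) was left out, the fit with replicate numbers as a block (0.0521), the fit without a filter (0.0897) and limma-voom without a filter (0.0627).

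Fgf8 (chromosome 19, positions 45811288 to 45817405, minus strand), the FGF ligand of the streak, had 5, 3 and 0 reads in naïve libraries with WT TET2 and 0, 5 and 5 with mutant TET2. Primed libraries had 1, 0 and 0 reads with WT TET2 and 1, 0 and 3 with mutant TET2. Reads were present in 4 of 6 naïve and 3 of 6 primed libraries. The ratio of pooled read rates was 3.22 (1.15 to 11.1), and the permutation test over libraries gave p = 0.305, so a difference beyond the spread between libraries was not detectable.

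Among the T-box factors, T (also Brachyury, chromosome 17, positions 8627288 to 8635361, plus strand), the classical marker of the streak and of early mesoderm, had 6, 6 and 17 reads in the naïve libraries with WT TET2 and 14, 2 and 16 with mutant TET2. In primed libraries it had 0, 1 and 0 reads with WT TET2 and 0, 5 and 0 with mutant TET2. Thus T was read in all 6 naïve libraries and was at 0 in 4 of 6 primed libraries. Normalised read counts overlapped through a single pair, 2.17 in mutant naïve replicate 2 against 5.38 in mutant primed replicate 2. The pooled read rate was 9.10 times as high in naïve as in primed ESCs (3.95 to 25.8), and the permutation test over both lines gave p = 0.01. Of the 6 primed reads 5 came from mutant primed replicate 2. The ratio was 34.5 with WT TET2 (5.73 to 1410), where the primed group held 1 read, and 4.32 with mutant TET2 (1.67 to 14.2), with permutation p-values of 0.1 and 0.2. When the test limit was lowered to 0.5 above the lowest value, the log2 value of T was higher in naïve ESCs by 0.86 ± 0.19 (SE, adjusted p = 0.00124), and the adjusted p stayed between 0.000256 and 0.00482 when each of the 12 libraries was left out in turn. T passed that limit through its naïve libraries, whose mean log2 value was 4.88 against 4.03 in primed libraries and a lowest value of 3.81, so these p-values describe a gene admitted by the medium in which it was high. With no filter the adjusted p was 0.0151.

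Eomes (chromosome 9, positions 118387330 to 118395250, plus strand), a T-box factor of the streak, the definitive endoderm and the trophoblast, was read 20, 29 and 24 times in naïve libraries with WT TET2 and 24, 26 and 45 times with mutant TET2. Primed libraries held 84, 85 and 290 reads with WT TET2 and 78, 92 and 92 with mutant TET2. In normalised read counts the naïve libraries lay between 20.3 and 28.3, and the primed libraries were at 124, 102 and 154 with WT TET2 and at 107, 99.1 and 97.5 with mutant TET2. The media did not overlap in either rescue line, and the naïve libraries of both lines lay close together. The log2 value was lower in naïve ESCs, with a difference of -1.51 over both lines (95% interval -1.77 to -1.24, adjusted p = 6.89e-08), with -1.62 (-1.99 to -1.24, adjusted p = 4.52e-06) for WT TET2 and -1.39 (-1.77 to -1.02, adjusted p = 2.08e-05) for mutant TET2. The pooled read rate was 4.80 times as high in primed as in naïve ESCs (4.05 to 5.71), and the permutation p over both lines was 0.005, the smallest it can give. The call was kept under all 21 alternatives tried, with a log2 difference between -2.17 and -1.44.

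Eomes also belongs to the list of trophoblast markers. Besides Eomes, 5 genes of that list were tested, of which 4 were lower in naïve ESCs over both lines and none was higher, beside 25.4% of all genes called lower. Gata3, a trophoblast transcription factor, had 0 reads in all 6 naïve libraries and 87, 74 and 267 reads in primed libraries with WT TET2 and 50, 63 and 76 with mutant TET2 (adjusted p = 3.51e-11 over both lines). It passed the test limit only through its primed libraries. Its p-value and its place among these 4 genes therefore describe a gene admitted by the medium in which it was high. The keratin genes Krt8 and Krt18 were lower in naïve ESCs (log2 differences -1.91 and -2.004, adjusted p = 1.78e-07 and 1.01e-06), and so was Ascl2 (-0.86, adjusted p = 0.000257). Krt7 did not pass the test over both lines (-0.18, adjusted p = 0.412). With WT TET2 alone Krt7 was lower in naïve ESCs (-0.87, adjusted p = 0.0105), and with mutant TET2 it was not called (0.52, adjusted p = 0.106). Without Eomes, the other 8 genes of the list summed to 46.4 to 135 normalised reads in the naïve libraries and to 306 to 722 in the primed libraries, 567 to 722 with WT TET2 and 306 to 510 with mutant TET2. The defining markers Cdx2 and Elf5 were too low to test. Cdx2 had 0 to 2 reads in naïve and 2 to 16 in primed libraries, and Elf5 had 0 reads in every naïve library and 0 to 8 in primed libraries. Hand1, also not tested, had 0 to 2 reads in naïve libraries, and 42, 22 and 46 reads with WT TET2 and 11, 14 and 10 with mutant TET2 in primed libraries. The part of trophoblast-like cells in the Eomes difference was not tested.

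**Figure D2:**
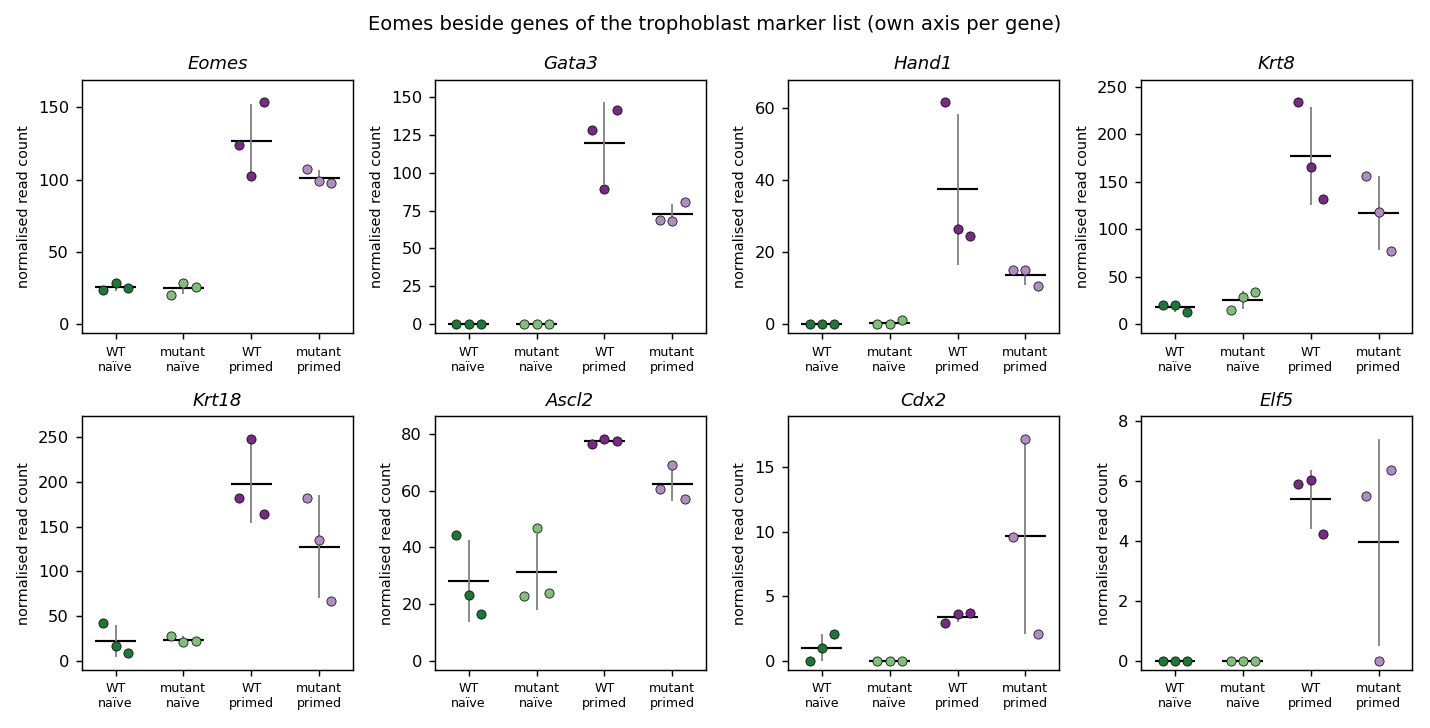
Normalised read count (vertical axis, own axis per gene) of Eomes and of 7 genes of the trophoblast marker list in the 12 libraries. Points are libraries, horizontal lines are means and grey lines are 1 SD, drawn down to 0 at most. Gata3 and Elf5 are at 0 in all 6 naïve libraries, and Eomes keeps 20.3 to 28.3 normalised reads there.

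Tbx6 (chromosome 7, positions 133924997 to 133929074, plus strand), a factor of the presomitic mesoderm, was at 0 in 4 of 6 naïve and 4 of 6 primed libraries. The libraries with reads were WT naïve replicate 3 with 3 reads, mutant naïve replicate 3 with 4, WT primed replicate 3 with 1 and mutant primed replicate 2 with 4. The ratio of pooled read rates was 1.25 with an interval of 0.342 to 5.01, so that no difference between media was detectable at this depth.

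Among the homeobox factors, Gsc (goosecoid, chromosome 12, positions 105709419 to 105711537, minus strand), a gene of the anterior streak and organiser, was the member with the most reads in naïve ESCs. It was read 65, 47 and 26 times in naïve libraries with WT TET2 and 98, 78 and 107 times with mutant TET2. Primed libraries held 9, 17 and 42 reads with WT TET2 and 21, 22 and 17 with mutant TET2. As normalised read counts these were 75.9, 45.8 and 26.8 and 82.9, 84.7 and 61.4 in naïve ESCs, and 13.2, 20.5 and 22.3 and 28.9, 23.7 and 18.02 in primed ESCs. Naïve libraries lay above primed libraries within each rescue line, and across the lines only WT naïve replicate 3, at 26.8, fell below a primed library. The log2 value was higher in naïve ESCs by 0.95 over both lines (0.60 to 1.29, adjusted p = 0.000159), by 0.78 with WT TET2 (0.29 to 1.27, adjusted p = 0.0151) and by 1.11 with mutant TET2 (0.62 to 1.60, adjusted p = 0.00163). The pooled read rate was 2.94 times as high in naïve ESCs (2.41 to 3.62), with a permutation p over both lines of 0.005. With WT TET2 alone the call was lost without WT naïve replicate 1, the library with the highest value of that group (adjusted p = 0.0784), and without WT primed replicate 1, the library with the lowest (0.0750). Over both lines and with mutant TET2 it was kept under all 21 and all 16 alternatives tried.

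Mixl1 (chromosome 1, positions 182623174 to 182627165, minus strand), which acts in the formation of mesoderm and endoderm from the streak, had 3, 3 and 3 reads in naïve libraries with WT TET2 and 7, 0 and 8 with mutant TET2. Primed libraries held 3, 3 and 22 reads with WT TET2 and 5, 3 and 9 with mutant TET2. With WT TET2 the primed libraries lay above the naïve ones after normalisation, from 3.62 to 11.7 against 2.92 to 3.50, and with mutant TET2 the media overlapped. The pooled read rate was 2.10 times as high in primed ESCs (1.25 to 3.60), but the permutation p over libraries was 0.1. At the lower test limit the log2 difference was -0.31 ± 0.17 (SE, adjusted p = 0.141), so the difference did not pass the test.

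Evx1 (chromosome 6, positions 52263492 to 52268372, plus strand), a homeobox gene of the posterior streak, had 1, 5 and 9 reads in naïve libraries with WT TET2 and 3, 0 and 12 with mutant TET2. Primed libraries held 11, 3 and 23 reads with WT TET2 and 19, 14 and 3 with mutant TET2. The pooled read rate was 2.72 times as high in primed ESCs (1.76 to 4.31), the libraries overlapped in both lines, and the permutation p was 0.06. At the lower test limit the log2 difference was -0.58 ± 0.22 (SE, adjusted p = 0.0365). This call remained when WT naïve replicate 3 (adjusted p = 0.0230), mutant naïve replicate 3 (0.0177), WT primed replicate 2 (0.0194) or mutant primed replicate 3 (0.00718) was left out, and it was lost without any of the other 8 libraries, at 0.0536 to 0.111. Evx1 overlaps the antisense gene 5730457N03Rik, which had 0 to 4 reads per library, and the libraries kept no strand, so reads of this pair were not separable where they overlap.

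Lhx1 (chromosome 11, positions 84331479 to 84338923, minus strand), a LIM homeobox gene of the anterior streak and its derivatives, had 0 reads in all 6 naïve libraries, which allows up to 0.0374 RPM. In primed ESCs it had 3 reads in all, 1 in WT primed replicate 2 and 1 each in mutant primed replicates 2 and 3, which is 0.0427 RPM. No fold is given, because the 3 primed reads do not exceed the 3 reads that a count of 0 allows.

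Mesp1 (chromosome 7, positions 86937127 to 86938674, minus strand), a factor of the earliest mesoderm that leaves the streak, was at 0 in the 3 naïve libraries with WT TET2. With mutant TET2 it had 5, 5 and 0 reads in naïve ESCs. In primed libraries it had 0, 0 and 2 reads with WT TET2 and 1, 0 and 0 with mutant TET2. The ratio of pooled read rates between naïve and primed ESCs was 2.98 with an interval of 0.768 to 16.9 and a permutation p of 0.55.

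**Figure D3:**
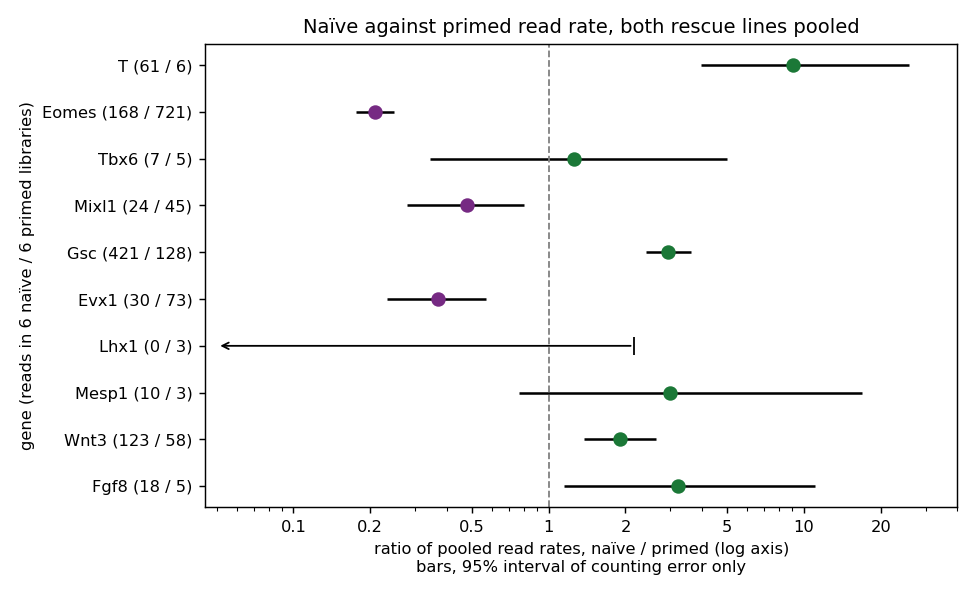
Ratio of the pooled read rate in the 6 naïve libraries to that in the 6 primed libraries (horizontal axis, log scale) for each member, with the reads behind it beside the name. Points are ratios and bars are exact 95% intervals of counting error only. The arrow for Lhx1 runs from the upper limit, since it had 0 naïve reads. T, Gsc, Wnt3 and Fgf8 lie above 1 with their intervals, and Eomes, Mixl1 and Evx1 below 1.

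Levels between members were compared as RPM per kb of exon. In naïve ESCs with WT TET2, Gsc stood at 3.27 ± 1.71 (SD, n = 3), followed by Wnt3 at 0.66 ± 0.21, Eomes at 0.51 ± 0.05 and T at 0.36 ± 0.22, and the ranges of 1 SD of Wnt3, Eomes and T overlapped. In primed ESCs with WT TET2 the order was Eomes at 2.62 ± 0.60, Gsc at 1.27 ± 0.35, Evx1 at 0.32 ± 0.19, Wnt3 at 0.27 ± 0.09 and Mixl1 at 0.25 ± 0.17, where the last 3 did not differ beyond their spread. With mutant TET2, Gsc led in naïve ESCs at 5.04 ± 0.74 and Eomes in primed ESCs at 2.03 ± 0.05. Over all libraries, Mesp1, Tbx6 and Lhx1 averaged 0.065, 0.040 and 0.0057.

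The second question was whether the members differed between WT and mutant TET2 within a medium. None of the 3 members tested was called in naïve or in primed ESCs. Of all genes tested, 0.0987% were called in naïve and 0.254% in primed ESCs, so calls were rare in this comparison. In naïve ESCs the log2 value of Gsc differed by -0.50 (WT minus mutant, 95% interval -0.995 to -0.01), with an unadjusted p of 0.0447 and an adjusted p of 0.366. Its normalised read counts were 75.9, 45.8 and 26.8 with WT TET2 and 82.9, 84.7 and 61.4 with mutant TET2, so the lines overlapped through WT replicate 1, while within same-numbered pairs, which correlated in naïve ESCs, Gsc was lower with WT TET2 in 3 of 3. Wnt3 differed by 0.43 (-0.04 to 0.89, adjusted p = 0.404) and was higher with WT TET2 in 3 of 3 such pairs. With the pairs as a block the adjusted p of limma was 0.177 for Gsc and 0.280 for Wnt3. Eomes differed by 0.02 (-0.35 to 0.40, adjusted p = 0.966). In primed ESCs the differences were 0.25 for Eomes (-0.13 to 0.63, adjusted p = 0.504), -0.18 for Gsc (-0.67 to 0.31, adjusted p = 0.740) and 0.07 for Wnt3 (-0.39 to 0.53, adjusted p = 0.903). The intervals leave room for differences as far as -0.995 on the log2 scale for Gsc and 0.89 for Wnt3 in naïve ESCs, and of 0.63 for Eomes in primed ESCs.

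The members under the test limit were compared between rescue lines by their reads. T had 29 reads with WT and 32 with mutant TET2 in naïve ESCs, a rate ratio of 1.22 (0.713 to 2.09, exact permutation p = 0.6). In naïve ESCs Mesp1 had 0 reads with WT TET2, which allows up to 0.0871 RPM, and 10 reads with mutant TET2, or 0.219 RPM. These 10 reads came from 2 of the 3 libraries, and the third and deepest was at 0, so the lines overlapped (exact permutation p = 0.4). For Mixl1, Evx1, Tbx6 and Fgf8 the interval of the rate ratio between rescue lines included 1 in both media.

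The third question was whether the difference between rescue lines changed with the medium. The change, taken as the WT minus mutant difference in naïve ESCs less that in primed ESCs, was -0.22 ± 0.25 (SE) for Eomes, 0.36 ± 0.31 for Wnt3 and -0.33 ± 0.33 for Gsc. The adjusted p was 0.976 for each of them and none had an unadjusted p under 0.05. Over all genes tested 0% were called by limma, and 489 genes had an unadjusted p under 0.05. The response of Wnt3 to the medium, called with WT TET2 only, was therefore not shown to differ between the lines.

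**Figure D4:**
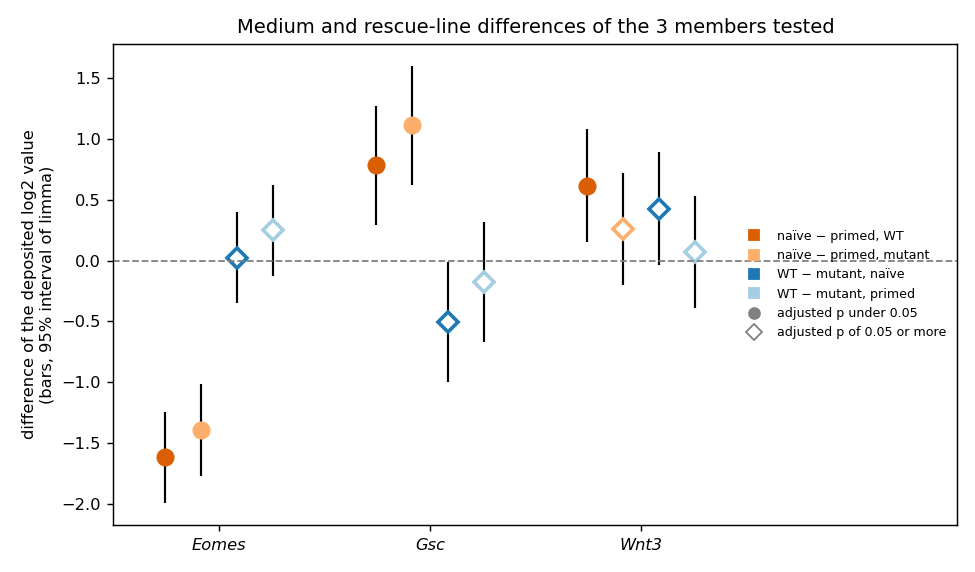
Differences of the deposited log2 value (vertical axis) for Eomes, Gsc and Wnt3 between media in each rescue line and between rescue lines in each medium, with 95% intervals from limma. Filled circles are differences with an adjusted p under 0.05 and open diamonds are the others. Eomes lies at -1.62 and -1.39 between media, and all differences between rescue lines are open.

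Other genes of the same pathways were taken from 3 lists. Of 34 other streak and mesoderm genes 33 were in the table and only 12 were high enough to test. Over both lines 4 were higher and 5 lower in naïve ESCs, beside 26.4% and 25.4% of all genes tested, with a median log2 difference of -0.26, against 0.0018 for all genes tested. Sp5, a β-catenin target gene, rose most in naïve ESCs: it had 271, 971 and 732 reads with WT TET2 and 228, 229 and 924 with mutant TET2, and 0 to 10 reads in primed libraries (difference 4.27, adjusted p = 4.90e-09). Cdx1, a homeobox gene of the posterior embryo, had 22 to 98 reads in naïve and 0 to 2 in primed libraries (difference 2.06, adjusted p = 1.74e-08). Sp5 and Cdx1 passed the test limit only through their naïve libraries. The ligands Fgf3 and Wnt5b were higher in naïve ESCs by 0.75 and 0.60, but Wnt5b was not called in either rescue line alone. The genes that were lower in naïve ESCs included Tcf15 (-1.67), a factor of the paraxial mesoderm, Lfng (-1.49), Dll3 (-1.39) and Dll1 of the Notch pathway, and Snai1 (-0.78), a repressor of E-cadherin. Dll1 was called over both lines only.

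Of 14 genes of the anterior streak, the node and the definitive endoderm 7 were tested, of which 2 were higher and 2 lower in naïve ESCs (median 0.30), a share close to the 26.4% and 25.4% of all genes. Lefty2, a Nodal antagonist, had 835 to 5330 reads in naïve and 79 to 186 in primed libraries (difference 3.69, adjusted p = 5.67e-08). Chrd, a BMP antagonist of the organiser, was higher by 1.04 (adjusted p = 0.00016), while Foxj1, a factor of motile cilia, and the chemokine receptor gene Cxcr4 were lower (-1.26 and -0.57). Cxcr4 was not called with mutant TET2 alone.

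Of 42 genes of the signals that induce the streak 40 were tested. Over both lines 8 were higher and 16 lower in naïve ESCs (median -0.21), beside 26.4% and 25.4% of all genes. Pcsk6, a convertase that processes Nodal, was higher by 1.88, the Wnt feedback gene Axin2 by 1.63, the Nodal antagonist gene Lefty1 by 1.38 and the β-catenin partner gene Lef1 by 1.17. Lefty1 (adjusted p = 0.0208 by limma) varied widely between naïve libraries, with 34, 471 and 481 reads for WT TET2 and 63, 139 and 852 for mutant TET2. Primed libraries held 46 to 95 reads of Lefty1, and it was not called between media with mutant TET2 alone. Among the feedback genes of the FGF and ERK pathway, Spry4 (-5.13), Etv4 (-3.95) and Dusp6 (-3.88) were much lower in naïve ESCs. Spry4 had 0 to 3 reads in naïve and 346 to 1200 in primed libraries. Spry4 and Etv4 passed the test limit only through their primed libraries. Spry2 and Etv5 were called lower with smaller differences. The ligand gene Fgf4 was called higher over both lines, though not with WT TET2 alone. Id3 (-3.58), a target gene of BMP signalling, was lower too, and so was Bmp4 itself, by -3.31 with WT TET2 (adjusted p = 5.97e-08). Nodal, the ligand, was among the 16 lower genes over both lines, but was not called in either line alone. Between rescue lines 0 genes of the 3 lists were called in either medium.

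**Figure D5:**
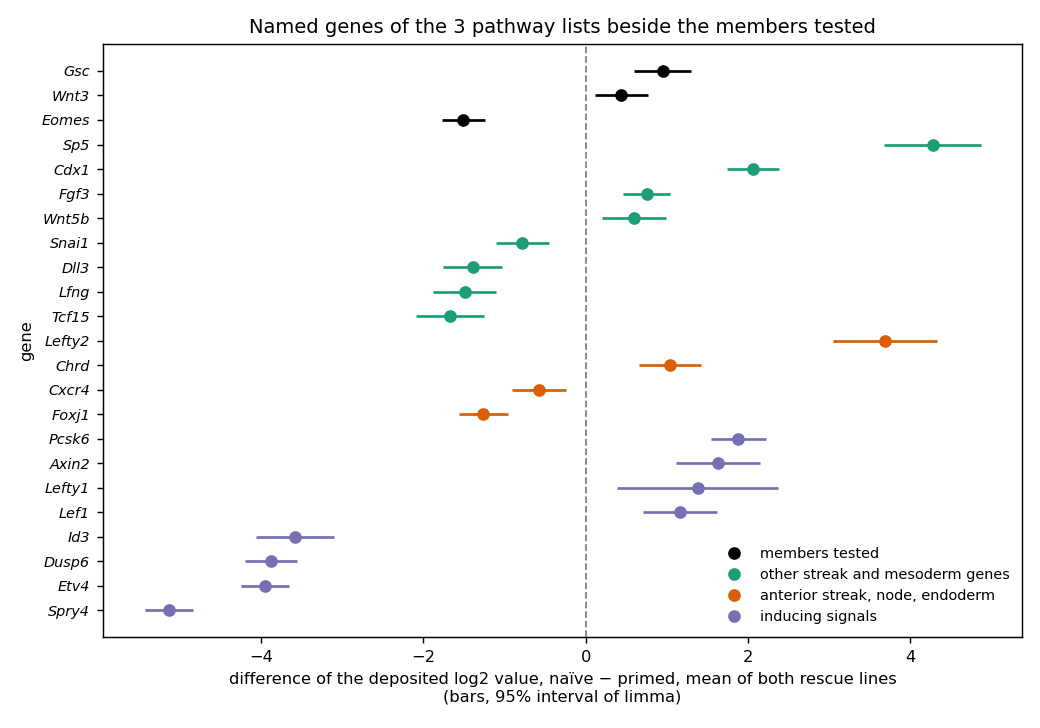
Difference of the deposited log2 value between naïve and primed ESCs (horizontal axis, mean of both rescue lines) for the members tested and for the called genes with the largest differences in each list. Points are differences and bars are 95% intervals from limma. Sp5 and Lefty2 lie furthest to the naïve side and Spry4, Etv4 and Dusp6 furthest to the primed side.

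Genes with profiles most like those of the members tested were found by the root mean square distance between log2 values over the 12 libraries, each gene centred on its own mean. For Eomes, whose SD over libraries was 0.80, they were Scrn1 (distance 0.15), Efnb3 (0.15) and Ret (0.17). For Gsc (SD 0.59) they were Gusb (0.16), Coq10a (0.16) and Gm17335 (0.16), and for Wnt3 (SD 0.36) Plekhf1 (0.19), Ezh1 (0.20) and Tnip2 (0.21). These genes shared the 12 libraries and the split between media.

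Other marker lists are given by their counts between media, where 26.4% of all genes were called higher and 25.4% lower in naïve ESCs. Of 8 tested genes of the formative epiblast, the state between naïve pluripotency and the streak, 6 were lower in naïve ESCs, such as Otx2 (-3.02, adjusted p = 1.12e-08), and 1, Lef1, was higher, and Fgf5 had 0 reads in all 6 naïve libraries and 2 to 19 in primed ones. Of 9 tested genes of naïve pluripotency 4 were higher and 2 lower, and of the 8 ESC genes 2 were higher and 3 lower. Of 5 tested genes of the primitive endoderm 1 was lower, of 3 neural genes 2 were lower, and of 4 genes of the two-cell-like state 1 was lower. Between rescue lines the only marker calls were Zscan4d and Gm4340 of the two-cell-like list, lower with WT than with mutant TET2 in primed ESCs (-1.99 and -1.32, adjusted p = 0.0336 and 0.0463). The part of these cell states in the members' differences was not tested.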

How the data were processed

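The authors trimmed poly(A)-selected, single-end reads without strand information with Trim Galore 0.3.3, aligned them to mm9 with TopHat2 2.0.9, placed a read with several equally good positions at random in one of them, counted reads per gene and made normalised values with DESeq2. The gene annotation is not given in the sources used here. The deposited gene values are variance-stabilised log2 values. Inverting it gave whole reads for 100% of the values (tolerance 0.01), and from these the normalised read counts. The repeat table was not used.

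Tests between groups used limma 3.58.1 (R 4.3.3), with 12 libraries in 4 group means, an intensity trend and Benjamini-Hochberg adjustment over 14185 genes. Rate ratios and permutation tests used scipy 1.17.1. The 10 members and the gene lists were chosen with earlier results of these data known. The text names all members, up to 4 called genes per list and direction with the largest differences, the 3 nearest profiles of each tested member, and Setdb1 and Tet2. Other genes of the text, markers among them, were chosen after their values were seen. Positions are from GENCODE M1 (mm9), where all 10 members were found.

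Labels number the replicates but do not say that they came from separate cultures, so p-values measure the spread between these libraries, which may be technical, and intervals of reads cover counting error only. Same-numbered libraries of the rescue lines correlated in naïve ESCs (0.586, 0.300 and 0.385, each over 0.1) and were taken as paired there. In primed ESCs and between media they were not. The differences between media over both lines did not model the pairs of naïve libraries. Alternatives were other filters and scalings, limma-voom on the reads, a replicate block, the libraries compared alone and each library left out. Added later, with the values in view, were limma-voom without a filter, permutation over both lines, and the lower filter with libraries left out. The test was also run on simulated reads, with the same spread beyond counting error for every gene and changes only in genes above the test limit. It therefore does not speak to members under that limit or to genes with a wider spread.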

Additional observations from a re-analysis of the deposited data

How the results depend on the processing

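Over both rescue lines, 3 members were called between media. The count was 5 when the limit for testing was lowered to 0.5 above the lowest value, which added T and Evx1 and tested 6 members. At that limit 4046 genes were called higher and 3923 lower of all 15754 tested. T passed it through its naïve libraries, and the Evx1 call was lost in 8 of 12 fits that left a library out. At the main limit the count was 2 to 3 when each library was left out, beside 3352 to 3948 genes called higher and 3184 to 3744 lower of 14185. With WT TET2 the 3 calls became 1 without a filter on low values, which raised the adjusted p of Gsc to 0.0625 and of Wnt3 to 0.0897. Calls over all genes fell there too, from 2637 higher and 2458 lower of 14185 to 2122 and 2201 of 26061. The 3 calls also became 1 without WT primed replicate 1, where 1848 of 14185 genes were called higher and 1657 lower. Over all libraries left out the count was 1 to 2, so fewer calls were not particular to the members. With mutant TET2 the count was 2 in all 17 alternatives. Between rescue lines and for the difference between media it was 0 in all alternatives.

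The sign of a small difference between rescue lines turned in a few cases. Eomes in naïve ESCs, at 0.02, became -0.02 without WT naïve replicate 2 and -0.05 without mutant naïve replicate 1, over a range of -0.050 to 0.080 when each library was left out. Wnt3 in primed ESCs, at 0.07, became -0.13 without mutant primed replicate 3, over a range of -0.13 to 0.27. The cause was not tested.

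With the replicate block, 0 members were called between rescue lines in naïve ESCs, where the numbers pair the libraries, and the adjusted p of Gsc was 0.177. Between media the block joined naïve and primed libraries of the same line and number, which were not taken as paired. It therefore does not test the effect of the pairs seen in naïve ESCs. The block left 3 members called over both lines, 2 with mutant TET2 and 2 with WT TET2, where Wnt3 was lost (adjusted p = 0.0521), and changed no other call. Low read counts kept 7 of 10 members under the test limit. T was called without a filter (adjusted p = 0.0151) and by limma-voom without a filter (difference 3.13, adjusted p = 0.00174), and Evx1 was not (0.149 and 0.0747). Scalings moved the median difference of all genes tested between media by less than 0.1.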
